A study of Mus musculus with 8 samples.

Results

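Collagen transcripts were followed in 8 RNA-Seq libraries of cells from the mouse distal lung. Every gene symbol made of Col, a type number, the letter a and a chain number was taken, which gave 43 of the 22756 genes listed. They were divided by the assembly their chains form into 11 fibrillar collagens, 9 basement membrane collagens and 23 others. The libraries came from adult mice that were more than 90 percent C57BL/6 and carried either Chrna7-IRES-tauGFP (α7G) or Chrna7-E260A-IRES-tauGFP (α7E260A:G). Both alleles are knock-ins made by homologous recombination, so they are present in every cell of the body, and both carry the tauGFP reporter. The E260A change restricts the calcium signaling of the nicotinic α7 receptor. The mice breathed room air (control) or side-stream cigarette smoke (CS) on 5 days per week for 4 months. Each of the 4 groups had 1 male and 1 female library. The number of mice in a library is not stated, so the p-values below measure only the spread between these libraries. The cells were prepared from lobes freed of lavage fluid and trachea by depletion of CD45+ cells with magnetic beads.

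Collagens are proteins of the extracellular matrix in which chains wind together into a triple helix, and the helix needs a glycine at regular steps along each chain, at the first place of each triplet of residues. Fibrillar collagens assemble end to end and side by side into the fibers that carry tension in the lung interstitium and airway wall, and fibroblasts are their usual source. The type IV chains form the sheet of the basement membrane under epithelium and around capillaries, and the remaining types decorate fibrils, form microfibrils or anchor cells.

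The glycine rule can be read in the coding sequence, because all glycine codons begin with GG. Below, 9 consecutive triplets of 3 codons are shown from the coding sequence (CDS, GENCODE M1 on NCBIM37) of 1 member of each class, with each GGN codon in capitals, to show the feature that sets the fibrillar class apart. The Col1a2 stretch covers codons 97 to 123 of ENSMUST00000031668.8 and opens its longest unbroken run. The Col6a1 stretch covers codons 256 to 282 of ENSMUST00000001147.4 and also opens its longest run. The Col4a1 stretch covers codons 148 to 174 of ENSMUST00000033898.9 at the end of its longest run, where the spacing of the capitals breaks and 8 GGN codons are left.
Col1a2: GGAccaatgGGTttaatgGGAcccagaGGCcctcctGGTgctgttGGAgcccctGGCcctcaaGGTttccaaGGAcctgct
Col6a1: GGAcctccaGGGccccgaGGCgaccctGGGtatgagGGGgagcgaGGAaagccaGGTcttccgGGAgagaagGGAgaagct
Col4a1: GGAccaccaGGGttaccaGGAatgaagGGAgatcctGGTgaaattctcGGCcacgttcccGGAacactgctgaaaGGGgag

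The longest run of triplets that each open with a GGN codon had a median of 338 triplets in the fibrillar collagens (216 to 344), 42 in the basement membrane collagens (30 to 75) and 52 in the others (28 to 113). All 43 members had a run of 20 triplets or more, against 20 of the 22694 genes outside the set that had a CDS model. The 9 runs of 300 triplets or more were all fibrillar, and the remaining fibrillar genes, Col24a1 and Col27a1, had runs of 216 and 217 triplets. Exons of 54 bases, which hold 6 such triplets, made up a median of 46.3% of the coding exons of the fibrillar genes, 4.17% of those of the basement membrane genes and 8.33% of those of the others. These shares ran from 41.2% to 55% in the fibrillar genes and from 0% to 44.4% in the others, so they overlapped. The fibrillar class thus stood apart in the length of its runs only.

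**Figure D1:**
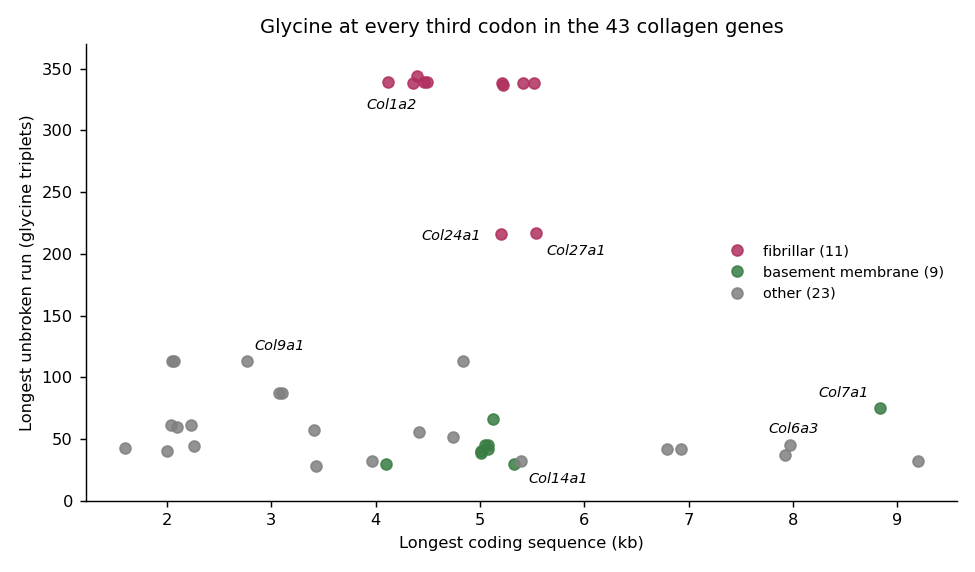
Longest unbroken run of triplets opening with a GGN codon (vertical axis, triplets) against the longest CDS of the gene (horizontal axis, kb), with 1 point per collagen gene and color for its class. The fibrillar genes sit between 216 and 344 triplets, above every basement membrane gene (30 to 75) and every other collagen (28 to 113).

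Several members lie beside each other in the genome. Col4a1 and Col4a2, the most abundant type IV chains, are transcribed away from each other on chromosome 8, and the 22 bases at chr8:11312805-11312826 (NCBIM37) belong to the first exons of both gene models. The coding part of neither gene reaches these bases. The library kit kept the strand of each transcript, and the deposited counts were made over the CDS, so that reads of the pair were kept apart. Col3a1 and Col5a2 lie 24614 bases apart on chromosome 1, and Col6a1 and Col6a2 lie 85161 bases apart on chromosome 10. The annotation placed Col1a1 at chr11:94797538-94814356, Col1a2 at chr6:4454814-4491543, Col6a3 at chr1:92663435-92740529 and Col14a1 at chr15:55139305-55352358.

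Library totals ran from 8020726 to 10944100 counts, so that 3 counts, taken as the detection limit, equalled 0.27 to 0.37 RPM (CDS counts scaled to a total of 1000000 in each library). This limit covers counting error only. Markers of cell types other than epithelium were measurable. Pecam1, an endothelial marker, was at 104 to 222 RPM and Epcam at 78.5 to 212 RPM, although the submitters describe a preparation nearly free of endothelium. Summed over 9 fibroblast markers the level was 1065 to 3244 RPM, over 8 endothelial markers 316 to 887 RPM, over 5 general epithelial markers 1002 to 1886 RPM, over 8 smooth muscle and pericyte markers 38 to 67 RPM and over 3 mesothelial markers 32 to 105 RPM. Of the 6 cartilage markers Acan and Matn1 had 0 counts in every library, Comp, Sox9 and Hapln1 reached at most 2.74 RPM and Chad was at 18.3 to 96.1 RPM. Ptprc, the gene for CD45, was at 771 to 1935 RPM. The male and female α7E260A:G libraries differed in collagen content. Each group had a single library per sex, so an effect of sex cannot be told apart from a difference between libraries. Collagen transcripts made up 0.308% and 0.299% of the counts in the male control and CS, but 0.0648% and 0.152% in the female ones, while the α7G libraries lay between 0.134% and 0.144%. The male and female α7E260A:G controls therefore stood at the opposite ends of the series in this share. Results that turned on either control are given without it below. The shares include the dependence of counts on CDS length described below. With it removed, Col1a2 was at 8.87 (male) and 7.88 (female) log2 RPM in the α7E260A:G controls, and Col3a1 at 8.82 and 7.78. In the α7E260A:G CS libraries Col1a2 was at 9.52 and 9.18, and Col3a1 at 9.09 and 9.16.

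Levels were compared between genes as RPM per kb of CDS. Collagen expression was concentrated in 3 fibrillar chains. Col1a2, which encodes the second chain of type I collagen, had the highest level at 101 ± 57.7 RPM per kb (SD, n = 8). Col3a1, the type III chain that co-assembles with type I in distensible tissue, was at 81.8 ± 46.2 (SD, n = 8), and Col1a1, the main type I chain, at 62.5 ± 40.8 (SD, n = 8). These 3 genes were followed by the type VI chains Col6a1 (31.9 ± 10.6 RPM per kb) and Col6a2 (23.9 ± 9.02) and by the type IV chain Col4a1 (20.9 ± 10.5). Below them were Col14a1, a fibril-associated collagen, at 16.7 ± 6.26, Col4a2 at 12.1 ± 5.97, Col8a2, a short-chain network former, at 9.78 ± 3.59, Col5a2, which helps set fibril diameter, at 8.13 ± 3.86, and the transmembrane collagen Col23a1 at 5.36 ± 2.1 RPM per kb. Neighbors in this order differed by less than the larger of their SDs over the libraries.

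**Figure D2:**
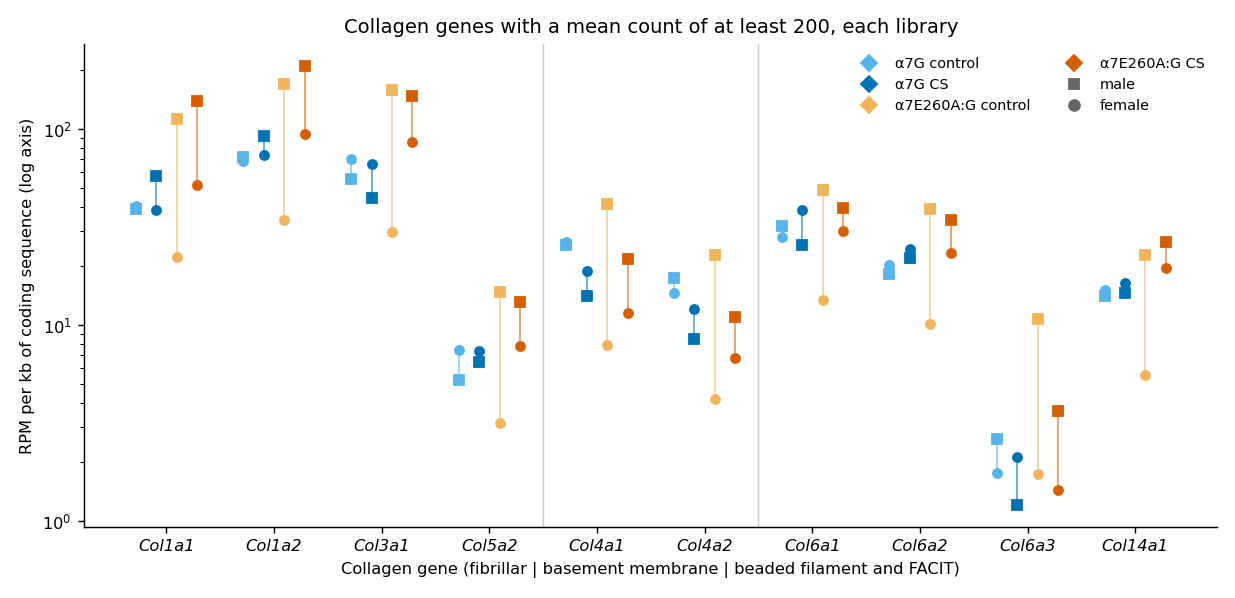
Levels in RPM per kb of CDS (log axis) of the 10 collagen genes that passed the filter on counts, with 1 point for each of the 8 libraries and marks for genotype, exposure and sex. Col1a2 runs from 34.3 to 209 RPM per kb, and the female α7E260A:G control is the lowest library for all of these genes but Col6a3.

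All members were accounted for by depth. A mean count of 200 over the libraries, the filter for the main test, was reached by 10 members: 4 fibrillar, 2 basement membrane and 4 others. Another 21 members had a mean count of 10 to 200, of which 4 were fibrillar, 7 basement membrane and 10 other, with means from 11.1 (Col9a3) to 181 (Col8a2). Col6a5 and Col6a6, chains that can take the place of Col6a3 in type VI collagen, had means of 9.5 and 3.88 counts. The last 10 members were under 3 counts, and 2 of them, Col9a1 and Col10a1, had 0 counts in all libraries, which allows up to 0.27 to 0.37 RPM. Of the collagens typical of cartilage, Col2a1 had 1 count in all libraries together, Col11a1 a mean of 1.5 counts and Col9a2 of 0.75 counts, while Col9a3 and Col11a2 had means of 11.1 and 59.4 counts. Col6a4 also had 1 count in all. Col19a1, a minor fibril-associated chain, had 1, 8, 8 and 2 counts in the α7G libraries and 0 in all 4 α7E260A:G libraries. Col22a1 (mean 1.62 counts), Col24a1 (1.5) and Col25a1 (0.625) completed the low group.

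Transcript length touched every comparison of these genes. The median CDS of the 10 members in the main test was 4449 bases, against 1547.5 bases for all 7190 genes tested, and 9.58% of those genes had a CDS of 4000 bases or more. Each library had its own dependence of counts on CDS length, with a slope (log2 deviation per doubling) of 0.23 in the male α7G control, 0.06 in the female α7G control, and -0.24 and -0.20 in the α7G CS. In α7E260A:G the male libraries were at 0.41 (control) and 0.19 (CS) and the female ones at -0.24 and -0.20. At the lengths of the 10 members, the fitted length effect alone put the CS libraries of α7G below their controls by values from -0.37 (Col6a1) to -1.01 (Col6a3) on the log2 scale. In α7E260A:G it ran from -0.09 to -0.44. All tests below used this fitted length dependence as an offset for each gene and library. The main values of the collagen genes without it are given as well.

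**Figure D3:**
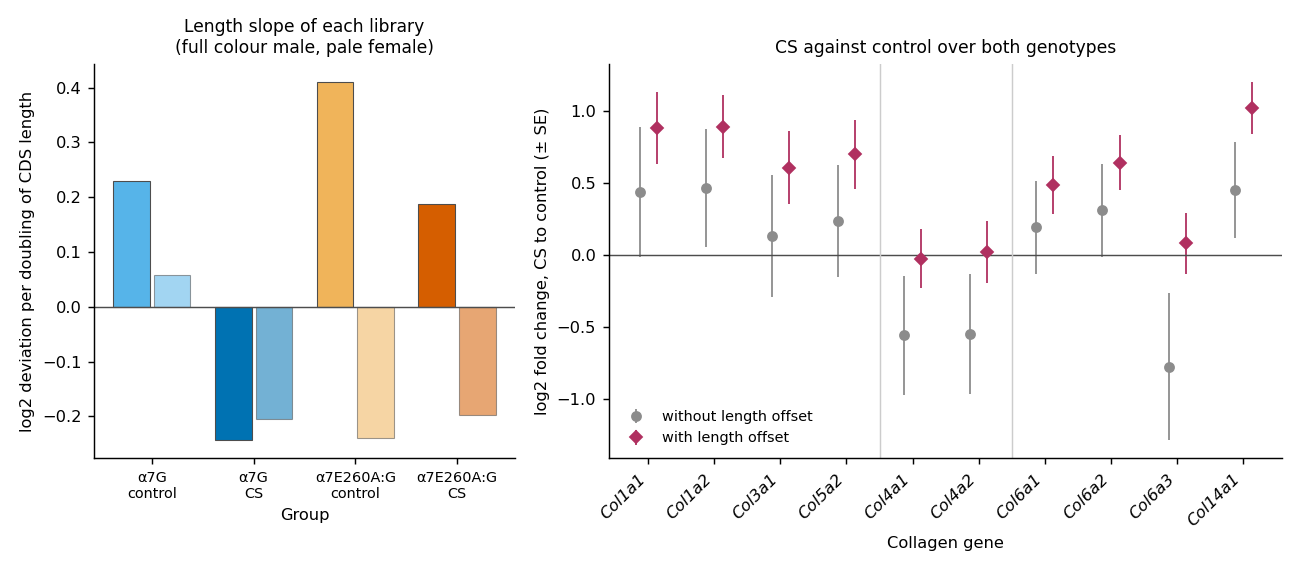
Left, log2 deviation of each library per doubling of CDS length, as 1 bar per library (full color male, pale female), from 0.41 in the male α7E260A:G control to -0.24. Right, log2 fold-change of CS against control over both genotypes for the 10 abundant collagens, with bars of 1 SE from edgeR, without (gray circles) and with (red diamonds) the length offset, which moved every gene upwards, Col4a1 from -0.55 to -0.02 and Col6a3 from -0.77 to 0.08.

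The first question was whether CS changed collagen transcripts. In bulk libraries such as these, fewer cells of a type and less RNA per cell cannot be told apart, which holds for every difference below. With the length offset, none of the 10 tested members passed an adjusted p of 0.05 (edgeR, quasi-likelihood F test, Benjamini-Hochberg over 7190 genes) in α7G, in α7E260A:G or over both genotypes. In each of these comparisons the share of all tested genes called was 0% as well. At an unadjusted p under 0.05, 6 of 10 members were higher after CS in α7G, where 8.05% of all tested genes had such a p. In α7E260A:G they were 3 of 10 against 4.48% of all genes, and over both genotypes 7 of 10 against 9.22%. Without the length offset these counts were 0 of 10 in each of the 3 comparisons, where 6.68%, 1.70% and 7.58% of all genes had such a p. Single libraries moved them too. In α7G the count was 0 without the male α7G control (4.97% of genes) and 3 without the female α7G CS (4.42%). In α7E260A:G it was 7 without the male control (11.4%) and 1 without the male CS (3.82%), and over both genotypes it was 4 without the male α7G control (5.24%). The median log2 fold-change of the members was 0.77 in α7G, 0.55 in α7E260A:G and 0.62 over both genotypes, while the medians of all tested genes were -0.01, -0.03 and -0.01. The members are long genes, and without the offset their medians were 0.21, 0.23 and 0.22. The size of the difference therefore depended on how length was treated. DESeq2 with the same offset called Col14a1, Col1a2 and Col1a1 over both genotypes (1.42% of all genes called) and Col14a1 in α7E260A:G (0.459%). It called no member in α7G, where it called 0.417% of all genes.

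Among the fibrillar collagens the type I chains stood first. Col1a2 was at 71.5 and 68.8 RPM per kb in the male and female α7G control and at 92 and 73.2 in the male and female α7G CS. In α7E260A:G it was at 168 and 34.3 in the controls and at 209 and 94.3 after CS. Each CS library was thus above the control of the same sex and genotype, but controls and CS libraries overlapped because the male α7E260A:G libraries were high throughout. The fitted log2 fold-change of Col1a2 over both genotypes was 0.89 ± 0.22 (SE, adjusted p = 0.29 in edgeR). It was 0.47 without the length offset.

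Col1a1 ran parallel to it. Its levels were 39.1 and 40.1 RPM per kb in the male and female α7G control, 57.6 and 38.5 in the α7G CS, 112 and 22.2 in the α7E260A:G control and 139 and 51.7 in the α7E260A:G CS. On this scale the female α7G pair did not share the direction of the other pairs, whereas with TMM scaling, with or without removal of length, all 4 pairs were higher after CS. The ratio of Col1a1 to Col1a2 stayed between 0.526 and 0.669 in all libraries, a narrow range for genes whose own levels spanned a far wider one. The log2 fold-change of Col1a1 over both genotypes was 0.88 ± 0.25 (SE, adjusted p = 0.36 in edgeR) and 0.44 without the offset.

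Col3a1 was at 55.1 and 70.3 RPM per kb in the male and female α7G control and 44.3 and 66.4 in the α7G CS, and at 157 and 29.7 in the α7E260A:G control and 146 and 86 in the α7E260A:G CS. The female α7E260A:G pair was the single pair in which this level was higher after CS. With length removed all 4 pairs were higher after CS, and the log2 fold-change was 0.61 ± 0.25 over both genotypes (SE, adjusted p = 0.52 in edgeR), against 0.14 without the offset.

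Col5a2, which is incorporated into type I fibrils, was separated between exposures once length was removed. Its length-corrected log2 RPM was 4.24, 5.11, 5.42 and 4.58 in the controls (male and female α7G, then male and female α7E260A:G) and 5.45, 5.60, 5.63 and 5.73 after CS in the same order. All CS libraries lay above all controls, by a small gap between the male α7E260A:G control and the male α7G CS. The log2 fold-change was 0.70 ± 0.24 (SE, adjusted p = 0.44 in edgeR) and 0.24 without the offset. Of the fibrillar genes below the filter, Col5a1 had a mean of 178 counts and a log2 fold-change of 0.37 over both genotypes when the filter was lowered to a mean of 10 counts.

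Of the other collagens Col14a1, which coats fibrils and links them to the surrounding matrix, had the clearest separation. Its length-corrected log2 RPM was 5.89, 6.39, 6.18 and 5.68 in the controls and 6.97, 7.09, 6.86 and 7.37 after CS, in the same order of libraries. No control reached the lowest CS library. The log2 fold-change was 0.87 ± 0.25 in α7G, 1.18 ± 0.26 in α7E260A:G and 1.02 ± 0.18 over both genotypes (SE, adjusted p = 0.57, 0.43 and 0.21 in edgeR), the last a 2.03-fold difference. Without the offset these values were 0.20, 0.71 and 0.46. As uncorrected RPM per kb the levels were 14.0 and 15.1 in the α7G control, 14.5 and 16.3 in the α7G CS, 22.6 and 5.53 in the α7E260A:G control and 26.3 and 19.4 in the α7E260A:G CS. The direction was the same in every pair on both scales, but the uncorrected differences in α7G were small. Fitted on all 16400 genes with at least 1 count, Col14a1 passed in α7E260A:G (adjusted p = 0.0475 in edgeR, 0.165% of genes called) and, with Col1a2 and Col1a1, over both genotypes (adjusted p = 0.00298, 0.0226 and 0.0404, 0.579% of genes called).

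The type VI chains build the microfibril network around cells. Col6a2 was at 5.70, 6.16, 6.62 and 5.81 (length-corrected log2 RPM) in the controls and at 6.69, 6.81, 6.68 and 6.84 after CS. These groups did not overlap, although the male α7E260A:G control came close to the CS range. Its log2 fold-change was 0.64 ± 0.19 over both genotypes (SE, adjusted p = 0.37 in edgeR), and that of Col6a1 was 0.49 ± 0.20 (SE, adjusted p = 0.51). Without the offset they were 0.31 and 0.20. Col6a3, the largest of these chains with a CDS of 9818 bases, behaved differently: it was at 2.61 and 1.75 RPM per kb in the α7G control, 1.21 and 2.11 in the α7G CS, 10.7 and 1.73 in the α7E260A:G control and 3.63 and 1.44 in the α7E260A:G CS. The male α7E260A:G control was far above the rest on this scale. Over both genotypes Col6a3 had a log2 fold-change of 0.08 ± 0.21 with the offset and of -0.77 without it, so that neither its size nor its sign held across the length correction.

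With length removed, the CS libraries lay entirely above the controls for 3 of the 10 members, Col14a1, Col5a2 and Col6a2, against 1.29% of all tested genes. On uncorrected RPM the CS libraries lay entirely above the controls for 0 of 10 members, against 119 of 7190 genes. The CS library was higher in all 4 pairs for 6 of 10 members (Col14a1, Col1a1, Col1a2, Col3a1, Col5a2 and Col6a2), against 9.65% of genes. On uncorrected RPM this held for 2 of 10, Col14a1 and Col1a2, against 13.1% of genes.

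The abundant basement membrane chains Col4a1 and Col4a2 did not share this direction. Col4a1 was at 25.6 and 26.6 RPM per kb in the male and female α7G control, 14.0 and 18.8 in the α7G CS, 41.2 and 7.92 in the α7E260A:G control and 21.7 and 11.5 in the α7E260A:G CS. In 3 of the 4 pairs it was lower after CS on this scale, the exception being the female α7E260A:G pair. With length removed it was higher in 3 of the 4, the exception then being the male α7E260A:G pair. With the length offset the log2 fold-change over both genotypes was -0.02 ± 0.21 (SE, adjusted p = 0.98 in edgeR), and without it -0.55. Col4a2 followed Col4a1 closely, with a ratio of Col4a1 to Col4a2 between 1.48 and 1.97 in all libraries, a log2 fold-change of 0.02 ± 0.21 with the offset (SE, adjusted p = 0.98) and of -0.54 without. The sign of Col4a2 therefore changed with the treatment of length, and Col4a1 moved from a negative value to one near 0.

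By class, the median log2 fold-change after CS in α7G was 0.84 for the 4 fibrillar members, 0.11 for the 2 basement membrane members and 0.78 for the 4 others. In α7E260A:G the medians were 0.77, -0.11 and 0.44. Without the offset they were 0.30, -0.53 and 0.21 in α7G and 0.41, -0.57 and 0.20 in α7E260A:G. Both ways of treating length placed the basement membrane class below the other classes. The sign of its own median changed with the length offset in α7G and not in α7E260A:G. Other settings changed that sign in α7E260A:G too. The median there was 0.12 with the filter at a mean count of 10, and ran from -0.50 to 0.47 when single libraries were left out. No test was made of the difference between classes.

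A ratio of genes of like length within a library is little touched by length or by the total collagen content. The sum of Col1a1, Col1a2 and Col3a1 relative to the sum of Col4a1 and Col4a2 (RPM per kb, a ratio chosen after the values were seen) was 3.86 (male) and 4.36 (female) in the α7G control and 8.63 and 5.78 in the α7G CS. In α7E260A:G it was 6.83 and 7.12 in the controls and 15.1 and 12.7 after CS. The ratio was higher after CS in all 4 pairs, by 1.32-fold to 2.24-fold, and higher in α7E260A:G in all 4 pairs, by 1.63-fold to 2.19-fold. Neither the exposures nor the genotypes were separated over all 8 libraries. With length removed the ratios were 3.96 and 4.39, 8.17 and 5.51, 7.41 and 7.02, and 15.5 and 12.3 in the same order, so the order of the libraries barely moved. Of 16 ratios examined, 1 separated the exposures and 2 the genotypes. Of the 12 also computed with length removed, 0 separated the exposures and 1 the genotypes. The share for ratios of other genes was not computed. Of single genes on RPM, 149 of 7190 had exposures and 585 of 7190 had genotypes that did not overlap. The ratio of Col6a1 to Col4a1 was 1.06 to 1.68 in controls and 1.82 to 2.60 after CS, but these ranges overlapped when length was removed, as the CDS of Col6a1 is the shorter. The ratio of Col3a1 to Col4a1 was 2.15 to 3.54 in α7G and 3.75 to 7.45 in α7E260A:G, and stayed separate with length removed. The ratio of Col15a1 and Col18a1, basement membrane collagens with an anti-angiogenic C-terminal domain, to Col4a1 and Col4a2 separated the genotypes narrowly, at 0.156 to 0.205 in α7G and 0.207 to 0.334 in α7E260A:G. It was not computed with length removed.

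**Figure D4:**
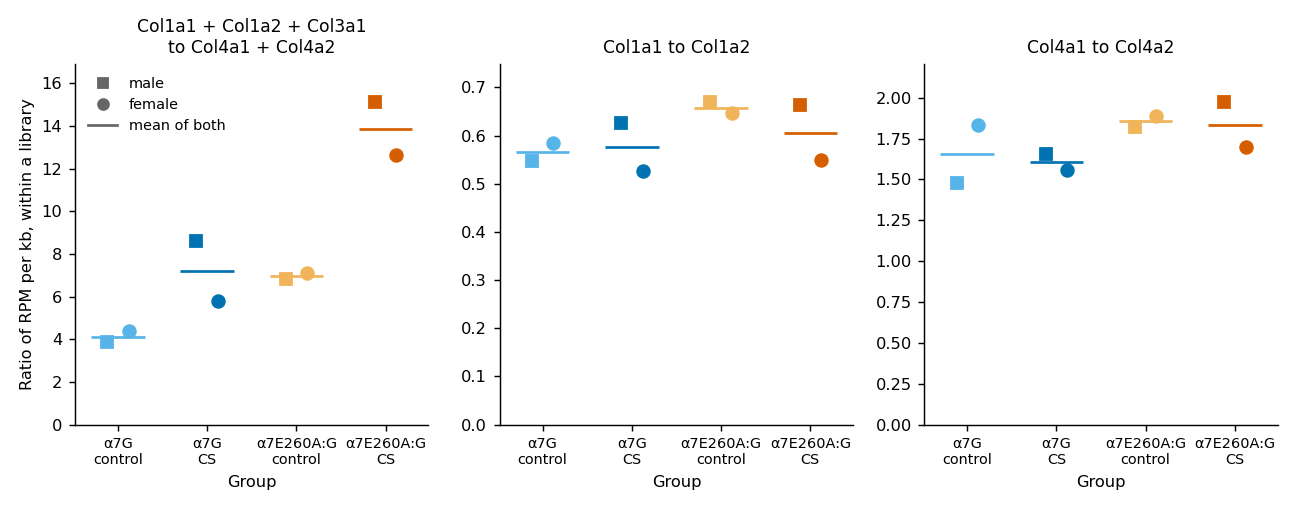
Ratios of collagen levels (RPM per kb of CDS) within a library for the 4 groups, with 1 point per library (marker shape for sex) and a line at the mean of both. The ratio of Col1a1, Col1a2 and Col3a1 to Col4a1 and Col4a2 is lowest in the α7G controls (3.86 and 4.36) and highest in the α7E260A:G CS libraries (15.1 and 12.7), while Col1a1 to Col1a2 (0.526 to 0.669) and Col4a1 to Col4a2 (1.48 to 1.97) keep narrow ranges.

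Cell type markers moved with these differences. The summed fibroblast markers were at 1065 and 1499 RPM in the α7G control, 3244 and 3151 in the α7G CS, 1812 and 1226 in the α7E260A:G control and 2088 and 2434 in the α7E260A:G CS. Controls and CS libraries did not overlap, and 8 of the 9 markers, among them Dcn, Mgp and Inmt, had a higher mean after CS. These sums are RPM without removal of length. Of single genes on RPM, 119 of 7190 had all CS libraries above all controls, and no share was computed for sums of other genes. The endothelial markers were at 751 and 689 RPM in the α7G control, 755 and 701 in the α7G CS, 887 and 316 in the α7E260A:G control and 767 and 403 in the α7E260A:G CS. The ratio of the fibroblast to the endothelial sum was thus 1.42 and 2.17, 4.30 and 4.50, 2.04 and 3.88, and 2.72 and 6.03 in the same order, higher after CS in 4 of 4 pairs. With length removed it was 1.86 and 2.35, 3.13 and 3.52, 3.48 and 2.82, and 3.55 and 4.59. It was again higher after CS in 4 of 4 pairs, but the male α7E260A:G pair barely differed. Controls and CS libraries overlapped in this ratio on both scales. Relative to the fibroblast sum, Col1a1, Col1a2 and Col3a1 (RPM, also set against each other after the values were seen) were at 0.665 and 0.512 in the α7G control, 0.254 and 0.242 in the α7G CS, 1.03 and 0.301 in the α7E260A:G control and 1.01 and 0.408 in the α7E260A:G CS. This quotient was higher after CS in 1 of 4 pairs, and in 2 of 4 when length was removed from all genes (0.460, 0.466, 0.399, 0.345, 0.521, 0.446, 0.732 and 0.571). On RPM the pair that was higher after CS was the female α7E260A:G pair. With length removed both α7E260A:G pairs were higher after CS and both α7G pairs were lower. The part of cell composition in the collagen differences was not tested.

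The second question was whether the genotypes differed in collagen transcripts. Over both exposures none of the 10 members passed (smallest adjusted p = 0.17 in edgeR, for Col4a2), while 6.80% of all tested genes did. Without the length offset 0 of 10 members and 6 of 7190 genes passed. At an unadjusted p under 0.05 it was 1 of 10 against 19.9% of all genes. Without the offset it was 0 of 10 against 11.9%, and without the female α7E260A:G control 6 of 10 against 25.4%. DESeq2 called none of them and 11.9% of all genes. The median log2 fold-change of the members was 0.21, beside 0.02 for all genes, and with length removed 0 of 10 had genotypes that did not overlap, against 13.1% of genes.

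The classes lay on opposite sides of 0. The fibrillar median was 0.46, the basement membrane median -0.48 and the median of the others 0.07. Col1a1 was higher in α7E260A:G by a log2 fold-change of 0.54 ± 0.25 (SE, adjusted p = 0.28 in edgeR), Col3a1 by 0.51 ± 0.25 (adjusted p = 0.31) and Col1a2 by 0.41 ± 0.22 (adjusted p = 0.36). Col4a2 was at -0.57 ± 0.21 (SE, adjusted p = 0.17 in edgeR) and Col4a1 at -0.39 ± 0.21 (adjusted p = 0.35). Without the offset these were 0.85 for Col1a1, 0.80 for Col3a1, 0.69 for Col1a2, -0.23 for Col4a2 and -0.05 for Col4a1, and the medians of the classes were 0.75, -0.14 and 0.30. Cell type markers separated the genotypes as well. The summed macrophage markers were at 16476 to 26815 RPM in α7G and 30733 to 56903 in α7E260A:G, and all 7 were higher in α7E260A:G. The type II markers were at 18241 to 27737 against 3999 to 13339 RPM, the type I markers at 388 to 475 against 140 to 327, and the club cell markers, which overlapped, at 43864 to 67592 against 14389 to 46228. The fibroblast markers overlapped, at 1065 to 3244 RPM in α7G and 1226 to 2434 in α7E260A:G. The endothelial markers also overlapped, at 689 to 755 against 316 to 887 RPM. These sums are RPM without removal of length. Of single genes on RPM, 585 of 7190 had genotypes that did not overlap. The part of these cell types in the collagen differences was not tested.

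Single α7E260A:G control libraries decided the genotype calls. Without the male α7E260A:G control, Col4a1 (log2 fold-change -0.69, adjusted p = 0.0248 in edgeR) and Col4a2 (-0.88, adjusted p = 0.0125) passed, with 10.2% of all genes called. Without the female one, Col1a2 passed instead (0.62, adjusted p = 0.0393 in edgeR), with 9.46% of genes called. Leaving out the male α7E260A:G control also brought Col14a1 (1.19, adjusted p = 0.0319), Col1a2 (1.21, adjusted p = 0.0269) and Col6a2 (0.90, adjusted p = 0.0401) past the threshold for CS over both genotypes in edgeR, with 0.473% of genes called.

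The third question was whether the response to CS differed between genotypes. None of the 10 members passed, and 0% of all tested genes did. At an unadjusted p under 0.05 it was 1 of 10 against 3.21% of genes, and 0 of 10 against 1.42% without the offset, and DESeq2 called no member and 0.0417% of genes. The single member was Col6a3, with a log2 fold-change after CS of 0.76 ± 0.30 in α7G and -0.59 ± 0.29 in α7E260A:G, a difference of -1.35 ± 0.42 (SE, adjusted p = 0.98 in edgeR) that was -1.03 without the offset. For the type I chains the difference was -0.14 (Col1a1) and 0.01 (Col1a2), and for Col14a1 0.31, each within its SE.

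Lower-expressed members were examined by lowering the filter to a mean count of 10, which left 13196 genes and 31 members. None passed in any comparison in edgeR. All genes were called at 0% for CS in α7G, for CS in α7E260A:G, for the difference and for CS over both genotypes, and at 4.16% for the genotypes. Members with an unadjusted p under 0.05 numbered 9 for CS in α7G (7.94% of all genes), 3 in α7E260A:G (4.37%), 2 for the difference (3.17%), 2 for the genotypes (16.9%) and 9 for CS over both genotypes (8.69%). The medians of the members were 0.61, 0.24, -0.16, -0.04 and 0.39 in the same order.

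Col13a1, a transmembrane collagen of cell-matrix junctions, had the widest contrast between genotypes among them. Its counts were 41 and 24 in the male and female α7G control and 80 and 136 in the α7G CS, and 186 and 57 in the α7E260A:G control and 68 and 46 in the α7E260A:G CS. Both α7G pairs were higher after CS and both α7E260A:G pairs lower, with or without the correction for length. The log2 fold-changes were 2.14 ± 0.50 and -0.90 ± 0.48, and the difference was -3.04 ± 0.69 (SE, adjusted p = 0.99 in edgeR). The adjusted p did not pass, as for every other gene tested.

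Col5a3 and Col12a1 were the members with lower length-corrected values in all α7E260A:G libraries than in any α7G library, 2 of 31 against 4.61% of genes. Col5a3, a minor fibrillar chain, had 31 and 44 counts in the α7G control, 15 and 17 in the α7G CS, 30 and 13 in the α7E260A:G control and 12 and 5 in the α7E260A:G CS, and a log2 fold-change between genotypes of -1.13 ± 0.42 (SE, adjusted p = 0.19 in edgeR). Col12a1, a fibril-associated chain, had 69, 66, 29 and 49 counts in α7G and 72, 37, 51 and 24 in α7E260A:G, and a log2 fold-change of -0.60 ± 0.30. The separation of both genes was seen only after length was removed. The male α7E260A:G control had more Col5a3 counts than either α7G CS library, and the highest Col12a1 count of all.

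With length removed, all 4 CS libraries were above all controls for 4 of the 31 members, Col14a1, Col5a2, Col6a2 and Col28a1, against 1.84% of genes. Col28a1, a collagen with von Willebrand factor A domains, rested on 0 to 23 counts per library (adjusted p = 0.47 in edgeR). The CS library was higher in all 4 pairs for 12 of 31 members against 11.1% of genes, and lower for 1 of 31, Col5a3, against 10.5%. Beyond the 6 members named above, the 12 included Col16a1, Col18a1, Col28a1, Col4a5, Col5a1 and Col8a1. Between genotypes 1 of 31, Col20a1, was higher in α7E260A:G in all 4 pairs against 13.7% of genes, and 4 of 31 (Col12a1, Col23a1, Col4a3 and Col5a3) were lower in all 4 pairs against 12.6%.

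Of the remaining type IV chains, Col4a3 and Col4a4 encode the network of the alveolar basement membrane together with Col4a5. Col4a4 had 47 and 62 counts in the α7G control, 9 and 23 in the α7G CS, 31 and 8 in the α7E260A:G control and 25 and 14 in the α7E260A:G CS. Its highest libraries were both α7G controls. The log2 fold-changes between genotypes were -0.88 for Col4a4 and -0.83 for Col4a3, at means of 27.4 and 19 counts. Over the 9 basement membrane members at this filter the median between genotypes was -0.45, over the 8 fibrillar members 0.40 and over the 14 others -0.04. After CS over both genotypes these medians were 0.07, 0.49 and 0.52. The basement membrane median was the lowest in both comparisons, as among the 10 abundant members that this set contains, but 6 of the 9 basement membrane members had a fold-change above 0 after CS, and the fibrillar and other medians after CS had changed places.

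**Figure D5:**
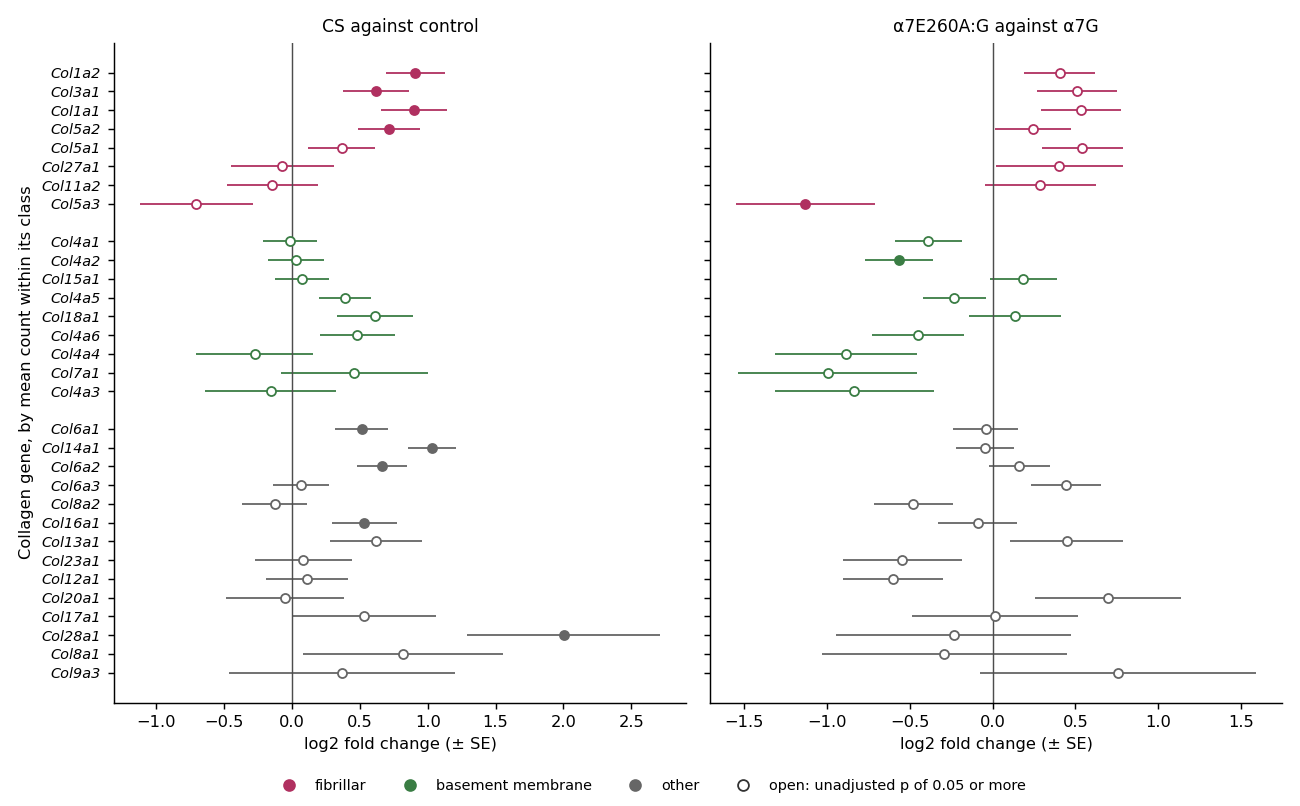
Log2 fold-changes with the length offset of the 31 collagens with a mean of 10 counts or more, for CS against control over both genotypes (left) and α7E260A:G against α7G over both exposures (right), as points with bars of 1 SE from edgeR, filled where the unadjusted p is under 0.05. After CS Col14a1 and the fibrillar Col1a1, Col1a2, Col3a1 and Col5a2 lie to the right of 0, and between genotypes Col4a4 (-0.88), Col4a3 (-0.83) and Col5a3 (-1.13) lie to the left, none of them past an adjusted p of 0.05.

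The fibrillar share of collagen counts was 55% and 57.9% in the male and female α7G control, 64.8% and 57.8% in the α7G CS, 65.7% and 61.7% in the α7E260A:G control and 74.6% and 68.8% in the α7E260A:G CS. It was higher after CS in all pairs but the female α7G pair. The basement membrane share was 21% and 19.1%, 12.3% and 14.9%, 14.2% and 14%, and 8.34% and 9.28% in the same order. The lowest basement membrane shares were therefore those of the α7E260A:G CS libraries and the highest those of the α7G controls. The share of the other collagens stayed between 17.1% and 27.3%.

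Genes that modify, fold, export, trim, cross-link and bind collagen were taken as a list of 50, of which 49 were in the files and 24 reached the filter. Between genotypes 2 of the 24 passed in edgeR with Benjamini-Hochberg adjustment, both higher in α7E260A:G. This count was near the share of all tested genes called, 6.80%. These calls used the length offset, without which 6 of 7190 genes passed in this comparison. Values of the listed genes without the offset are not given. In the CS comparisons and the difference none of the 24 passed. The unadjusted p was under 0.05 for 4 of 24 for CS in α7G (8.05% of all tested genes) and 0 in α7E260A:G (4.48%). It was under 0.05 for 1 for the difference (3.21%), 7 for the genotypes (19.9%) and 4 for CS over both genotypes (9.22%). Plod3, which hydroxylates and glycosylates collagen lysines, was at 220, 164, 172 and 191 RPM in α7G (male and female control, male and female CS) and 326, 210, 315 and 245 in α7E260A:G. The genotypes overlapped narrowly, by the female α7E260A:G control, and the log2 fold-change was 0.59 ± 0.12 (SE, adjusted p = 0.021). Tgfbr1, a receptor of the TGF-beta ligands that induce collagen genes, was at 93.2, 69.9, 29.6 and 32.3 RPM in α7G and 146, 63.3, 124 and 65.7 in α7E260A:G, with a log2 fold-change of 1.04 ± 0.21 (SE, adjusted p = 0.024). Its lowest libraries were the α7G CS pair. The genotypes overlapped on this scale, as both female α7E260A:G libraries lay below both α7G controls.

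The 3 tested genes of propeptide removal each had an unadjusted p under 0.05 after CS in α7G and over both genotypes. Adamts2, the procollagen N-proteinase, had a log2 fold-change after CS over both genotypes of 0.81 ± 0.20 (SE, adjusted p = 0.29 in edgeR). Pcolce and Pcolce2, enhancers of the C-proteinase, had 0.60 ± 0.17 and 0.60 ± 0.24 (adjusted p = 0.35 and 0.49). In α7G the values were 1.10, 0.91 and 1.06, and in α7E260A:G 0.52, 0.30 and 0.14, where no unadjusted p was under 0.05. None of the 3 passed the adjusted threshold. Serpinh1, the chaperone HSP47 that binds folded procollagen, was at 90.2, 126, 98.5 and 145 RPM in α7G and 230, 34.3, 116 and 82 in α7E260A:G, spread like the collagens over the α7E260A:G controls. P4hb, the shared subunit of prolyl hydroxylase, kept to 541 to 677 RPM in all libraries. Loxl1, the cross-linking enzyme that passed the filter, had a log2 fold-change after CS of 0.87 in α7G and -0.25 in α7E260A:G. Over both genotypes the most abundant chaperone Hsp90b1 was at -0.02, the integrin chain Itgb1 at -0.02 and the receptor Tgfbr2 at 0.00.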

How the data were processed

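RNA from CD45-depleted distal-lung cells was sequenced from poly(A) selected, strand-specific libraries, and per the labels each of the 4 groups had 1 male and 1 female library. The authors aligned reads to mm9 (NCBIM37) with STAR and counted them over coding sequences with HTSeq, and the deposited files hold these raw counts for 22756 genes, all found by identifier and symbol in GENCODE M1. No normalized values were used. The members and lists were chosen with earlier results of these data known.

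Counts were scaled by TMM and tested in edgeR 4.0.16 (R 4.3.3) by the quasi-likelihood test, with 1 term for each group and all 8 libraries in the fit. The filter kept genes with a mean count over 8 libraries of 200 or more, after immunoglobulin, histocompatibility, Gm and ribosomal protein genes were left out (7190 genes), and p-values were adjusted over these by Benjamini-Hochberg. For each library the log2 difference of each gene from its average level was fitted by lowess on log2 CDS length and entered as an offset. The same fitted values were subtracted from log2 RPM (prior count 0.5) for the length-corrected levels. RPM was computed as counts scaled to a total of 1000000 CDS counts in the library and divided by CDS length in kb for levels between genes. The SE was taken from the fold-change and the F statistic. Library totals were 8020726 to 10944100 counts. The test was also run on simulated counts that carried the fitted length dependence of these libraries. The offset removes that same dependence, so the simulation checks the code and not how well the offset fits these data.

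All members with a mean count of at least 200 were named with their values, those of 10 to 200 by values or ranges, and those below by count. Of the 50 collagen pathway genes, those past the threshold and up to 4 of the most abundant of each role could be named. Alternatives were DESeq2 1.42.0, no length offset, scaling by library size, lower filters, sex as a replicate block, an offset for length and GC content, and leaving out each library.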

Additional observations from a re-analysis of the deposited data

Results flagged for a closer look

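In the 4 libraries of a genotype, 8 of the 62 sets of length-corrected collagen levels had 1 library far from the others. The measure is the gap of that library to its nearest neighbor divided by the whole range. In α7G it was 0.890 for Col4a3 (female CS low, 9 counts), 0.933 for Col11a2 (male CS low, 17 counts) and 0.896 for Col5a3 (female control high, 44 counts). In α7E260A:G the female control was low for Col18a1 (0.891), Col4a4 (0.838) and Col8a1 (0.838, with 0 counts in that library). The male control was high for Col13a1 (0.850, with 186 counts) and the male CS was low for Col9a3 (0.953, with 11 counts). All of these members had a mean count under 200.

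The response to CS went in opposite directions in both pairs of the genotypes for 3 of the 31 members with a mean count of at least 10. The share of all genes with this pattern was not computed, so the count has no background. The difference of the log2 response, α7E260A:G minus α7G, was 1.43 ± 0.86 for Col4a4 (SE, adjusted p = 0.99 in edgeR), -3.04 ± 0.69 for Col13a1 (adjusted p = 0.99) and -1.35 ± 0.42 for Col6a3 (adjusted p = 0.98). None of the 3 passed the threshold. Col13a1 had the opposite directions on RPM as well, and Col4a4 and Col6a3 only after length was removed.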

How the results depend on the processing

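No collagen gene passed the adjusted threshold in the main comparisons, and this held with sex as a replicate block and the length offset (0 members called in all 5 comparisons), without the offset and with scaling by library size. The sex label was shared but does not tie libraries to an animal or day. The correlation of same-sex deviations ran from 0.076 to 0.668 over the 6 group pairs, 5 of them above 0.1. The block moved the genes called between genotypes from 489 to 703, and leaving out the length offset moved them to 6. DESeq2 called 1 member for CS in α7E260A:G and 3 over both genotypes, and the fit on all genes with at least 1 count also called 1 and 3. Leaving out each library gave 0 to 2 members between genotypes, 0 to 3 for CS over both genotypes and 0 elsewhere. Members with separate genotypes were 2 at a mean count of at least 10, and 0 to 2 when a library was left out.

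A class median was counted as moved where it changed by at least the SD of its medians over matched pairs. By this rule class medians moved in 24 fits, of which 10 had no length offset, 4 of these with the lower filter as well. For CS the SD rests on 1 male and 1 female pair. It was 0.066 (others) and 0.10 (basement membrane) in α7G, but 0.74 for basement membrane in α7E260A:G, where changes of sign were therefore not counted. For CS in α7G the fibrillar median was 0.30 without the offset, 0.26 with the block and no offset and -0.069 at a mean count of 10 without it. The basement membrane median was -0.53, -0.49 and -0.50 under these, 0.0060 by library size and -0.060 with length and GC. The median of the others was 0.21, 0.23 and 0.22, 0.67 by library size, 0.63 on all genes and 0.68 with length and GC. For CS in α7E260A:G the fibrillar median was 0.13 at a mean count of 10 without the offset. Without single libraries the fibrillar medians ran from 0.58 to 1.13 (CS in α7G), 0.35 to 1.41 (CS in α7E260A:G) and 0.13 to 0.67 (genotypes), the basement membrane medians from -0.11 to 0.30, -0.50 to 0.47 and -0.79 to -0.28, and the others from 0.54 to 0.91, 0.09 to 0.94 and -0.16 to 0.24.

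Signs reversed for single genes under 3 settings, given as no offset, block without offset and mean count of 10 without offset. For CS in α7G these were -0.55, -0.52 and -0.53 for Col4a1, -0.51, -0.45 and -0.49 for Col4a2, -0.060, -0.050 and -0.041 for Col3a1 and -0.26, -0.11 and -0.24 for Col6a3. For CS over both genotypes they were -0.54, -0.45 and -0.53 for Col4a2 and -0.77, -0.64 and -0.76 for Col6a3, and between genotypes 0.26, 0.20 and 0.28 for Col14a1 and 0.086, 0.038 and 0.10 for Col6a1. Library size gave -0.027 for Col4a1 (CS in α7G) and -0.043 for Col4a2 (CS over both), and length with GC gave -0.088 and -0.033 for Col4a1 and Col4a2 in α7G and -0.046 for Col4a2 over both. Without single libraries Col4a1 ran from -0.12 to 0.33, -0.51 to 0.45 and -0.22 to 0.27 (CS in α7G, in α7E260A:G and over both), Col4a2 from -0.10 to 0.36, -0.50 to 0.50 and -0.17 to 0.33, Col6a3 from -0.12 to 0.29 over both, and between genotypes Col5a2 from -0.035 to 0.48, Col14a1 from -0.23 to 0.070, Col6a1 from -0.30 to 0.14 and Col6a2 from -0.10 to 0.34. The cause of these changes was not tested beyond the construction of each setting.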
